A study of Mus musculus with 6 samples.

Results

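The integrated stress response and the unfolded protein response are the pathways by which a cell answers a shortage of amino acids or a load of misfolded protein in the endoplasmic reticulum (ER). The 40 genes described here were taken by symbol from a table of 24411 genes, and they hold stress sensors, transcription factors, the phosphatase subunits that end the response, target enzymes of the factor ATF4, ER chaperones and the ER-associated degradation machinery. Of the 40 genes, 39 had enough counts to be tested among 12892 tested genes, and Fgf21 did not. RNA came from extensor digitorum longus (EDL), a fast-twitch muscle of the lower leg, of C57BL/6J mice aged 50 weeks. In 3 mAktDKO mice, Mlc1f-Cre was combined with Akt1/2-floxed alleles, and the 3 control mice were Akt1/2-floxed, so that both groups carried the floxed alleles and only the mAktDKO group was described as carrying Cre. Akt1 and Akt2 encode kinases that act downstream of the insulin receptor. Cre is driven from the Mlc1f locus, a fast myosin light chain gene, so that cells of the tissue in which it is not active keep both genes. Per the study's methods, mice were male unless another sex was given.

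In the integrated stress response, kinases such as PERK (Eif2ak3) and GCN2 (Eif2ak4) phosphorylate eIF2alpha, which slows protein synthesis in general while the mRNA of ATF4 is translated better. ATF4 then switches on genes for amino acid supply and, under strong stress, for growth arrest and cell death. The unfolded protein response has PERK as one arm, and its other arms, IRE1 (Ern1) with XBP1 and ATF6, switch on ER chaperones and degradation genes. Muscle fibres are best known here for a mitochondrial form of the stress response, in which ATF4 raises serine synthesis enzymes and the secreted hormone FGF21. Phosphorylation, splicing of Xbp1 and translation of Atf4 are not visible in gene counts, which measure the abundance of the mRNA.

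Matches to known motifs were spread differently over the promoters of the ATF4 target and the ER chaperone genes. The stretches below were copied from the RefSeq promoter windows of GRCm38.p6, 250 bases before to 50 bases after a start site, which were given for 36 of the 40 genes and not for Atf6, Ppp1r15b, Manf and Hyou1. Capitals mark an exact match, on either strand, to the C/EBP-ATF response element (CARE, searched as TGATGNAAN), the site of ATF4 and its partners, or to the ER stress element (ERSE, searched as CCAAT, any 9 bases and CCACG), the site of ATF6 and XBP1 with a CCAAT-binding factor. Each is written 5′ to 3′ along the strand of its gene. They are shown because the matches differed between the branches: of the ATF4 target genes, 5 of 12 with a window held CARE and 0 held ERSE, and of the ER chaperone genes, 6 of 10 held ERSE and 0 held CARE. CARE stretches:
Asns, chr6:7693214-7693242, minus strand: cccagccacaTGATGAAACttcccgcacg
Pycr1, chr11:120643813-120643881, minus strand: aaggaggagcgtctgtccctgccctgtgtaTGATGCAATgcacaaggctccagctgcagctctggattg
Chac1, chr2:119351018-119351086, plus strand: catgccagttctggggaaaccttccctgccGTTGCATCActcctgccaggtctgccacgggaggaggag
Fgf21, chr7:45615592-45615660, minus strand: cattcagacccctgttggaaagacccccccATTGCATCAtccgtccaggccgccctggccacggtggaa
Atf3, chr1:191183406-191183474, minus strand: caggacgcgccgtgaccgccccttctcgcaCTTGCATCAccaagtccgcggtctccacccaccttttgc
ERSE stretches:
Hspa5, chr2:34772020-34772048, plus strand: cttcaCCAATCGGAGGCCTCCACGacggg
Pdia6, chr12:17266461-17266539, plus strand: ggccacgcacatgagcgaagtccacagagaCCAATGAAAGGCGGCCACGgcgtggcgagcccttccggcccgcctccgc
Calr, chr8:84847045-84847123, minus strand: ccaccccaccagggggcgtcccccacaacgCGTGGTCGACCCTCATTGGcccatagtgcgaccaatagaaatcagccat
Canx, chr11:50325770-50325848, minus strand: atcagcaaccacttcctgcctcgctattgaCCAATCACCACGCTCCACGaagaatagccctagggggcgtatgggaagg

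The fifth CARE among the ATF4 target genes lay in Trib3, behind the start site, and the remaining ERSE matches of the chaperones lay in Hsp90b1 and Dnajc3. Over all roles, 7 of 36 genes held CARE, against 4.5% of 27025 genes with a window, and 7 of 36 held ERSE, against 0.137%. The genes were listed as parts of the pathways of these same factors. The excess and its split between roles are therefore no independent finding. Herpud1, a scaffold of ER-associated degradation, held a CARE and also the short ERSE-II form (searched as ATTGG, 1 base and CCACG), which 0.0444% of all genes held; its matches did not overlap. Syvn1, the ubiquitin ligase of that machinery, was the seventh gene with ERSE. A match is a description of letters and not a bound site, and Psat1, Phgdh, Psph, Shmt2, Mthfd2, Aldh18a1 and Sesn2 had none of these letters in the window searched.

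**Figure D1:**
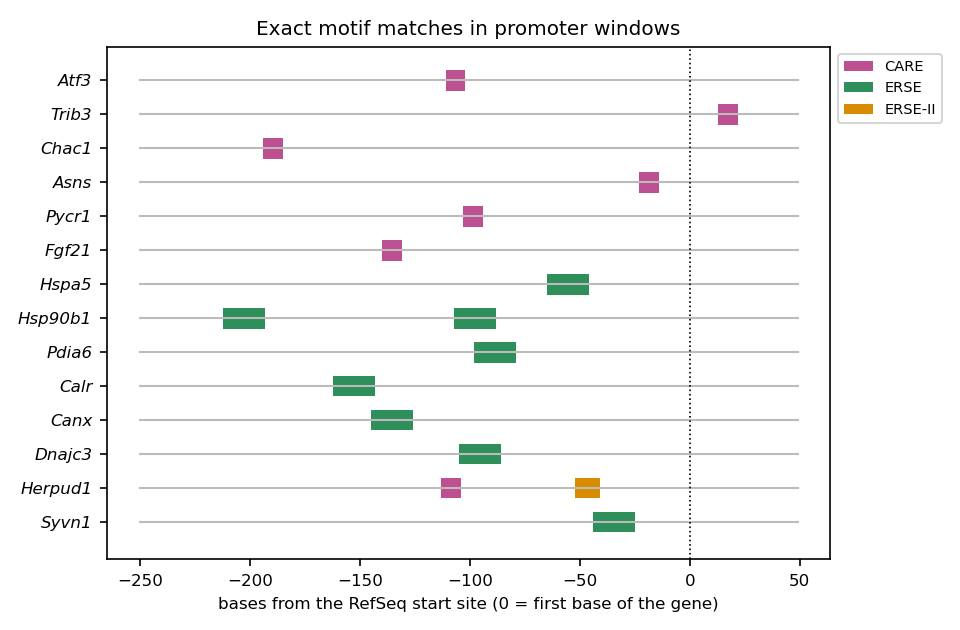
Position of each exact motif match along the promoter window of the genes that had one, in bases from the RefSeq start site at 0 (x axis), with 1 row per gene; the colour gives CARE, ERSE or ERSE-II. CARE matches lie in ATF4 target genes, Atf3 and Herpud1, and ERSE matches in 6 chaperone genes and Syvn1, all of the ERSE matches before the start site.

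Between 13738795 and 15445523 counts were assigned to genes in a mouse, and the smallest level taken as shown, 3 counts, stood at 0.18 to 0.227 CPM. CPM here are counts per 1e+06 counts of a mouse, with the total scaled by edgeR's TMM factor, and levels are compared between genes only per kilobase of merged exons. Akt2 stood at 51.3, 49.1 and 52.7 CPM in the mAktDKO mice and at 172, 133 and 143 CPM in the control mice, and its log2 ratio was -1.55 ± 0.11 (SE), with an adjusted p of 0.000923 in edgeR's quasi-likelihood test. Akt1 stood at 58.9, 56.8 and 51.4 CPM against 66.4, 65.5 and 66.5 CPM (log2 fold change -0.25 ± 0.08, edgeR adjusted p = 0.1145); reads outside the floxed exons and from other cells of the tissue count for both genes. On the first principal component of all tested genes, which held 44.9% of the variance, control mouse 2 stood at 43.7, apart from the other 2 control mice at 4.15 and 6.22 and from the mAktDKO mice at -27.4 to -7.21. The summed CPM of 8 fibroblast markers was 11790 in that mouse and 24010 and 28060 in the other control mice. In the mAktDKO mice it was 28620 to 34450. Of the 8 markers, 7 were above 0 in fold change, 3 of them with separate groups, and none was at 0 counts in all mice. Collagen mRNA made up most of the sum in every mouse, with Col1a1 at 5899 CPM and Col1a2 at 3562 CPM in control mouse 2. Pdgfra differed less, at 62.78 CPM in control mouse 2 against 75.65 and 73.94 CPM in the other control mice. Gsn went the other way and was highest in control mouse 2, at 918.5 CPM, while all the other markers were lowest there. Fast-fibre markers summed to 131000 to 146000 CPM in the mAktDKO and 150000 to 161000 CPM in the control mice, all 10 of them with a log2 fold change below 0. Adipocyte markers summed to 153 to 240 CPM against 132 to 161 CPM (6 of 6 above 0 in fold change, a median of 0.94 on the log2 scale). Fabp4 was most of this sum in every mouse and the only one of these markers with separate groups. Adipoq stood at 16.87, 21.86 and 5.691 CPM in the mAktDKO mice against 5.943, 4.596 and 9.526 CPM, so that mAktDKO mouse 3 was inside the control range. Macrophage and leukocyte markers summed to 122 to 152 against 82.8 to 131 CPM (7 of 8, 0.39). For slow-fibre markers the sums were 661 to 1280 against 585 to 853 CPM (5 of 6, 0.40), and for tendon markers 1220 to 1760 against 935 to 1260 CPM (5 of 5, 0.22). These values stand beside the results below, and their part in them was not tested; in bulk tissue, fewer cells of a type and less RNA per cell cannot be told apart.

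With edgeR, 0 of the 39 stress-response genes had an adjusted p under 0.01, which 3 genes of the whole table had (0.0233%), and 2 lay below an adjusted p of 0.05. DESeq2, the tool for which the study set its threshold of 0.01, gave 341 genes of the whole table an adjusted p below it, 3.55% of those it gave an adjusted p, and 1 of the stress-response genes, Cebpb. Psat1, a serine synthesis enzyme, was 2.20-fold higher in the mAktDKO mice, and Cebpb, a transcription factor that pairs with ATF4, stood at 0.64 of the control level. Atf4 itself, Ddit3 (CHOP) and Trib3, which serve as common readouts of the response, were not higher in the mAktDKO muscle beyond the spread of the mice, and Ddit3 was lower in every mAktDKO mouse. At an adjusted p of 0.05 the background was 0.264% of the tested genes higher and 0.915% lower. With an unadjusted p under 0.05, 5 of 39 genes were higher (Atf6, Asns, Psat1, Aldh18a1 and Dnajb9), where 11.4% of all tested genes were, and 3 were lower (Ddit3, Cebpb and Psph), where 13.1% were. In 5 genes every mAktDKO mouse lay above every control mouse and in 4 genes below, against 14.6% and 16.6% of all tested genes. At an unadjusted p and for separate groups, the shares of the stress-response genes were thus close to the background or below it. Of the 39 genes, 28 had a log2 fold change above 0 and 11 below, with a median of 0.13. Over all tested genes, 6762 of 12892 were above 0, with a median of 0.02. Control mouse 2 had the lowest level of all mice in 21 of the 39 genes, and the part of that mouse in the count was not tested.

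**Figure D2:**
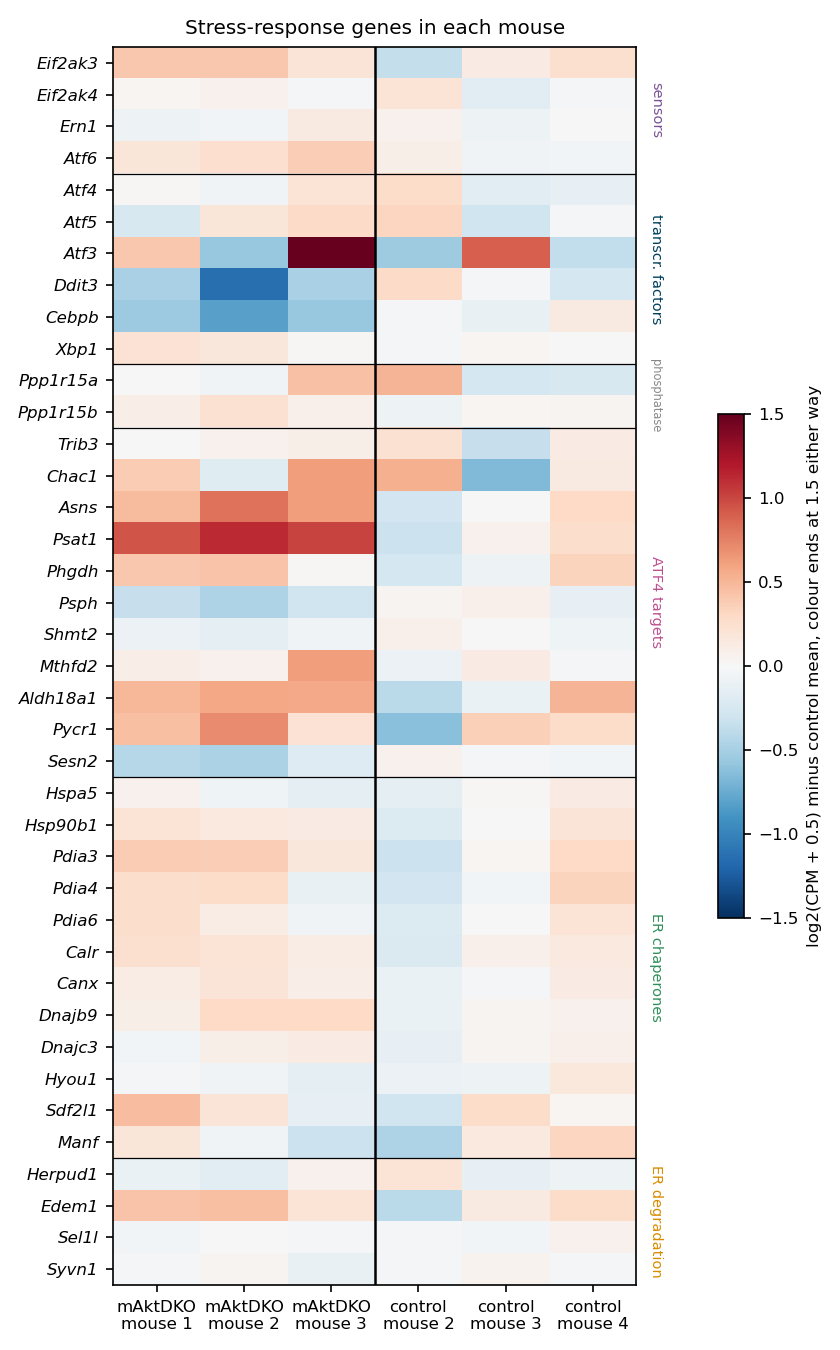
Level of the 39 tested genes (rows, grouped by role) in each mouse (columns) as log2(CPM + 0.5) minus the mean of the 3 control mice; red is higher, blue is lower and the colour ends at 1.5 either way. Psat1 is red in the 3 mAktDKO mice, Cebpb and Ddit3 are blue in them, Atf3 is dark red in mAktDKO mouse 3 only, and the ER chaperones are mostly pale blue in control mouse 2.

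Among the sensors, all 4 had a fold change above 0, and 1 had groups that did not overlap. Atf6 encodes a membrane protein of the ER that is cut in the Golgi to release a transcription factor. It stood at 70.1, 73.6 and 79.5 CPM in the mAktDKO mice and at 65.7, 59.4 and 59.7 CPM in the control mice. Every mAktDKO mouse was thus above every control mouse, with a log2 fold change of 0.27 ± 0.08 (SE, edgeR adjusted p = 0.1056). Eif2ak3, which encodes the ER kinase PERK, stood at 17.3, 17.2 and 14.8 CPM against 9.93, 14.1 and 15.35 CPM. Here control mouse 2 was far below the other 5 mice, control mouse 4 lay inside the mAktDKO range, and the log2 fold change of 0.33 ± 0.16 had an edgeR adjusted p of 0.2414. Ern1, the kinase and nuclease IRE1 that splices Xbp1, stood at 12.4, 12.7 and 14.3 CPM against 13.70, 12.4 and 13.1 CPM, and the groups overlapped (0.01 ± 0.11, adjusted p = 0.9763). Eif2ak4, the amino acid sensor GCN2, stood at 6.34, 6.53 and 6.10 CPM against 7.20, 5.47 and 6.05 CPM, with the mAktDKO mice inside the control range (0.02 ± 0.15, adjusted p = 0.9507).

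Of the 6 transcription factors, 4 had a fold change above 0 and 2 below, and Cebpb had an edgeR adjusted p under 0.05. Atf4 was read at 103, 98.5 and 118 CPM in the mAktDKO mice and at 124, 91.9 and 94.1 CPM in the control mice. The highest Atf4 level was that of control mouse 2, the groups overlapped, and the log2 fold change was 0.04 ± 0.13 (adjusted p = 0.8546). Atf5, a paralogue of Atf4 linked to the mitochondrial stress response, was read at 51.9, 69.5 and 74.7 CPM against 76.8, 49.6 and 60.3 CPM, with both extremes in the control group (0.07 ± 0.18, adjusted p = 0.831). Xbp1, the factor of the IRE1 arm, counted here without regard to splicing, was read at 47.1, 45.5 and 41.1 CPM against 39.8, 41.4 and 40.3 CPM. Only mAktDKO mouse 3 overlapped with the controls (0.14 ± 0.08, adjusted p = 0.3198).

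Cebpb, which encodes C/EBPbeta, a partner of ATF4 at CARE sites and a factor of inflammation and fat cell formation, was the gene of the response whose lower level was best separated. It was read at 58.4, 48.3 and 57.3 CPM in the mAktDKO mice and at 84.3, 78.9 and 93.3 CPM in the control mice. The gap between the groups, from 58.4 to 78.9 CPM, was wider than the range within either of them, with a log2 fold change of -0.64 ± 0.10 (edgeR adjusted p = 0.03938; DESeq2 adjusted p = 2.965e-05). The edgeR adjusted p stayed under 0.05 without control mouse 2 or control mouse 4 (0.03253 and 0.04082) and was 0.09665, 0.1979 and 0.1147 without mAktDKO mouse 1, 2 and 3 and 0.06503 without control mouse 3. Per kilobase, Cebpb was among the most abundant of the 40 genes in the control muscle, at 56.8 CPM per kb, second to Hspa5 at 58.1. In the mAktDKO muscle it stood at 36.3 CPM per kb. The part of the adipocyte and macrophage markers given above in its level was not tested.

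Ddit3 encodes CHOP, the factor that links a lasting stress response to cell death. It was read at 4.57, 2.76 and 4.59 CPM in the mAktDKO mice and at 8.18, 6.49 and 5.44 CPM in the control mice. All mAktDKO mice were below all control mice, and the log2 fold change was -0.76 ± 0.24 (edgeR adjusted p = 0.1059). Atf3, a stress factor that also belongs to the rapid response to growth factors and injury, was read at 19.6, 9.76 and 108 CPM against 9.998, 27.8 and 11.3 CPM. The log2 fold change of 1.48 ± 0.79 (adjusted p = 0.2727) rested on mAktDKO mouse 3 and was -0.17 without it. Immediate-early genes, which tissue handling can also induce, had their highest sum of 18 genes in the same mouse, 1471 CPM, against 786 and 1110 CPM in the other mAktDKO mice and 725 to 1010 CPM in the control mice; their part in the Atf3 value was not tested.

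The phosphatase subunits direct the enzyme that removes the phosphate from eIF2alpha. Ppp1r15a (GADD34), the subunit that stress induces, stood at 16.9, 16.3 and 23.3 CPM in the mAktDKO mice and at 24.3, 14.0 and 14.3 CPM in the control mice, with the highest value in control mouse 2 (log2 fold change 0.10 ± 0.23, adjusted p = 0.8132). Ppp1r15b, the constitutive subunit, stood at 56.8, 61.8 and 55.7 CPM against 50.3, 53.9 and 54.4 CPM. The groups did not overlap, but their gap was narrow, and the log2 fold change of 0.14 ± 0.08 had an edgeR adjusted p of 0.3135.

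**Figure D3:**
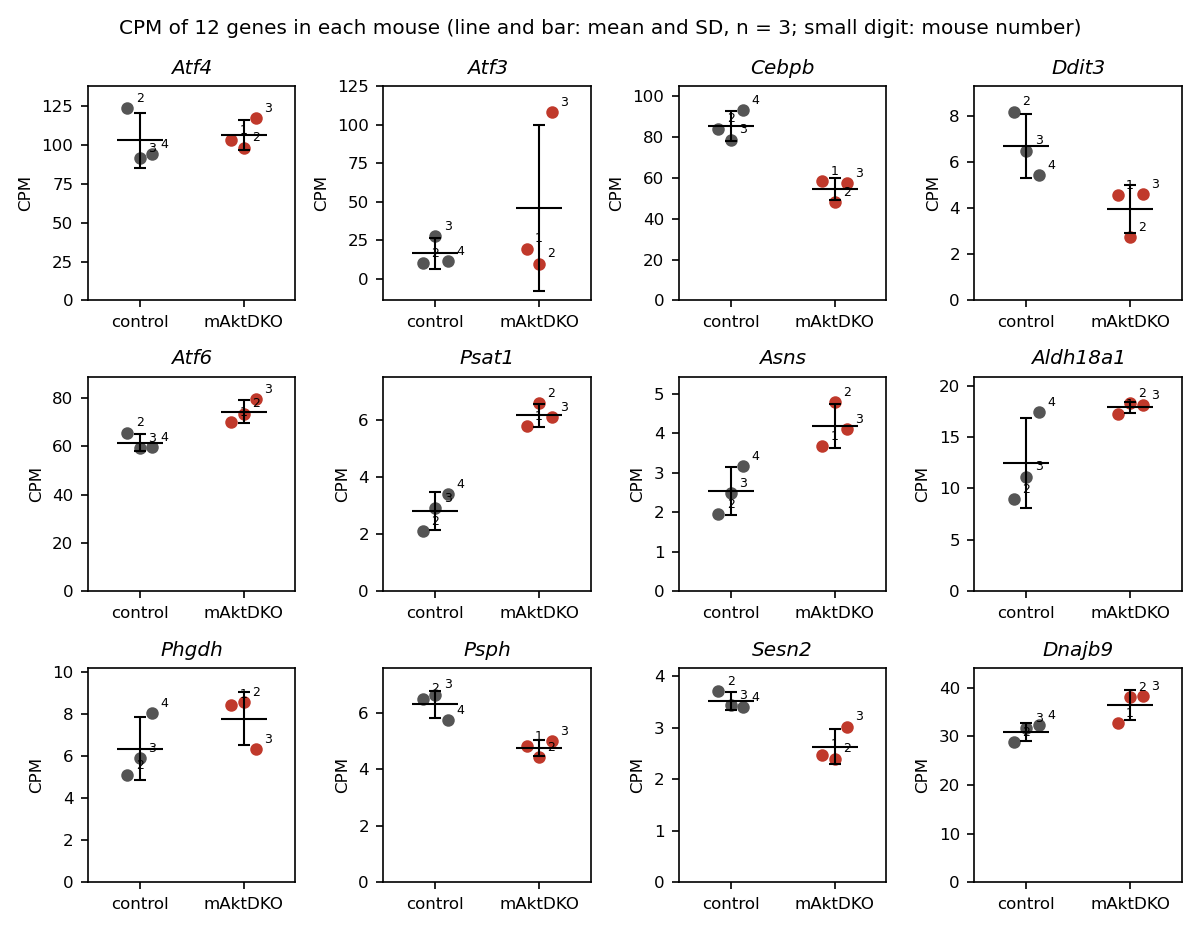
CPM of 12 genes in each mouse, 1 panel per gene, with control mice in grey and mAktDKO mice in red, the mouse number beside each point, and the mean and SD of 3 mice as line and bar. Cebpb, Ddit3, Psph and Sesn2 lie lower and Atf6, Psat1, Asns and Dnajb9 higher in every mAktDKO mouse, while Atf4 overlaps and 1 mouse sets the mean of Atf3.

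Of the 12 ATF4 target genes, 11 were tested, 8 with a fold change above 0 and 3 below. On the log2 scale their fold changes ran from -0.42 to 1.14, around a median of 0.30. Psat1 encodes phosphoserine aminotransferase, the middle enzyme of the route from a glycolytic intermediate to serine. It was read at 5.77, 6.59 and 6.10 CPM in the mAktDKO mice, a mean of 6.15 ± 0.41 (SD, n = 3), and at 2.10, 2.92 and 3.402 CPM in the control mice, a mean of 2.81 ± 0.66 (n = 3). The lowest mAktDKO mouse was well above the highest control mouse, and the log2 fold change of 1.14 ± 0.20 had an edgeR adjusted p of 0.04665. DESeq2 gave Psat1 a p of 5.635e-05 and no adjusted p, since the gene lay below its own limit on low counts: the reads behind these values were 91, 110 and 89 in the mAktDKO and 30, 40 and 45 in the control mice. The edgeR adjusted p was 0.04479 and 0.03761 without control mouse 2 and control mouse 4, and it was 0.1164, 0.2203 and 0.1153 without mAktDKO mouse 1, 2 and 3 and 0.09108 without control mouse 3. Even so, the level stayed low: Psat1 stood at 0.66 CPM per kb in the control and 1.45 CPM per kb in the mAktDKO muscle.

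The enzymes before and after Psat1 in the same route gave these values; their differences from Psat1 were not tested. Phgdh, the first enzyme, stood at 8.43, 8.57 and 6.31 CPM against 5.10, 5.91 and 8.01 CPM, and mAktDKO mouse 3 and control mouse 4 crossed over (log2 fold change 0.30 ± 0.20, edgeR adjusted p = 0.3717). Psph, the phosphatase of the last step, stood at 4.82, 4.43 and 5.01 CPM in the mAktDKO mice and at 6.50, 6.64 and 5.75 CPM in the control mice. Every mAktDKO mouse was below every control mouse (-0.41 ± 0.14, edgeR adjusted p = 0.1395), the direction opposite to that of Psat1. Shmt2 and Mthfd2, which pass the carbon of serine into the mitochondrial folate cycle, had log2 fold changes of -0.10 and 0.31 (adjusted p = 0.5136 and 0.341), both with overlapping groups.

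Asns makes asparagine and is among the best known ATF4 targets. It was read at 3.68, 4.79 and 4.11 CPM in the mAktDKO and at 1.96, 2.48 and 3.18 CPM in the control mice. The groups did not overlap, and the log2 fold change was 0.73 ± 0.22 (edgeR adjusted p = 0.1056). Aldh18a1 and Pycr1 make proline from glutamate. Aldh18a1 stood at 17.3, 18.3 and 18.1 CPM against 8.95, 11.2 and 17.4 CPM, so that control mouse 4 reached the mAktDKO level (0.52 ± 0.21, edgeR adjusted p = 0.1701). Pycr1 had a log2 fold change of 0.49 ± 0.32 with overlapping groups (adjusted p = 0.3575).

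The regulators among the ATF4 targets were not higher beyond the spread of the mice. Trib3, a pseudokinase that dampens ATF4 and AKT, differed by 0.05 ± 0.32 on the log2 scale (adjusted p = 0.9433) at 10 to 19 counts a mouse. Chac1, which degrades glutathione, stood at 9.57, 6.35 and 11.5 CPM against 10.7, 4.38 and 8.01 CPM, with the lowest value in control mouse 3 (0.24 ± 0.31, adjusted p = 0.6595). Sesn2, an inhibitor of mTORC1 that senses leucine, stood at 2.47, 2.40 and 3.02 CPM in the mAktDKO and 3.71, 3.43 and 3.402 CPM in the control mice, lower in every mAktDKO mouse (-0.42 ± 0.19, edgeR adjusted p = 0.2101). Fgf21, the hormone that muscle under mitochondrial stress secretes, was counted 0, 1 and 4 times in the mAktDKO mice and 0, 1 and 0 times in the control mice, at or close to the limit of 3 counts, so that no fold is given.

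The ER chaperones and folding enzymes had fold changes near 0, with none under an edgeR adjusted p of 0.05. All 12 were tested, 9 with a fold change above 0 and 3 below, and on the log2 scale they ran from -0.08 to 0.29 around a median of 0.13. Hspa5 encodes BiP, the main ER chaperone and the usual reporter of ATF6 activity. It was read at 257, 234 and 224 CPM in the mAktDKO mice and at 222, 249 and 267 CPM in the control mice, with both extremes among the controls (-0.05 ± 0.10, adjusted p = 0.7973). Dnajb9, a BiP co-chaperone that XBP1 induces, was the only chaperone whose groups did not overlap, at 32.8, 38.1 and 38.3 CPM against 28.9, 31.7 and 32.3 CPM (0.23 ± 0.10, edgeR adjusted p = 0.1777). Pdia3, a disulfide isomerase of glycoprotein folding, had the highest fold change, at 94.2, 93.5 and 81.5 CPM against 57.5, 73.7 and 88.9 CPM, and control mouse 4 stood above mAktDKO mouse 3 (0.29 ± 0.15, adjusted p = 0.2475). The others, all with overlapping groups, were Hsp90b1 (0.15), Pdia4 (0.14), Pdia6 (0.11), the lectins Calr (0.18) and Canx (0.13), Dnajc3 (0.06), Hyou1 (-0.07), Sdf2l1 (0.22) and the secreted factor Manf (-0.08), as log2 fold changes.

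Control mouse 2 had the lowest level of the 6 mice in 11 of the 12 chaperones, against 6 of 11 ATF4 target genes. Without that mouse, the median log2 fold change of the chaperones was 0.03 and that of the ATF4 targets 0.22. It was also the mouse with the lowest fibroblast marker sum, given above, which was mostly collagen mRNA. The part of fibroblasts, or of their collagen mRNA, in the chaperone levels was not tested.

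**Figure D4:**
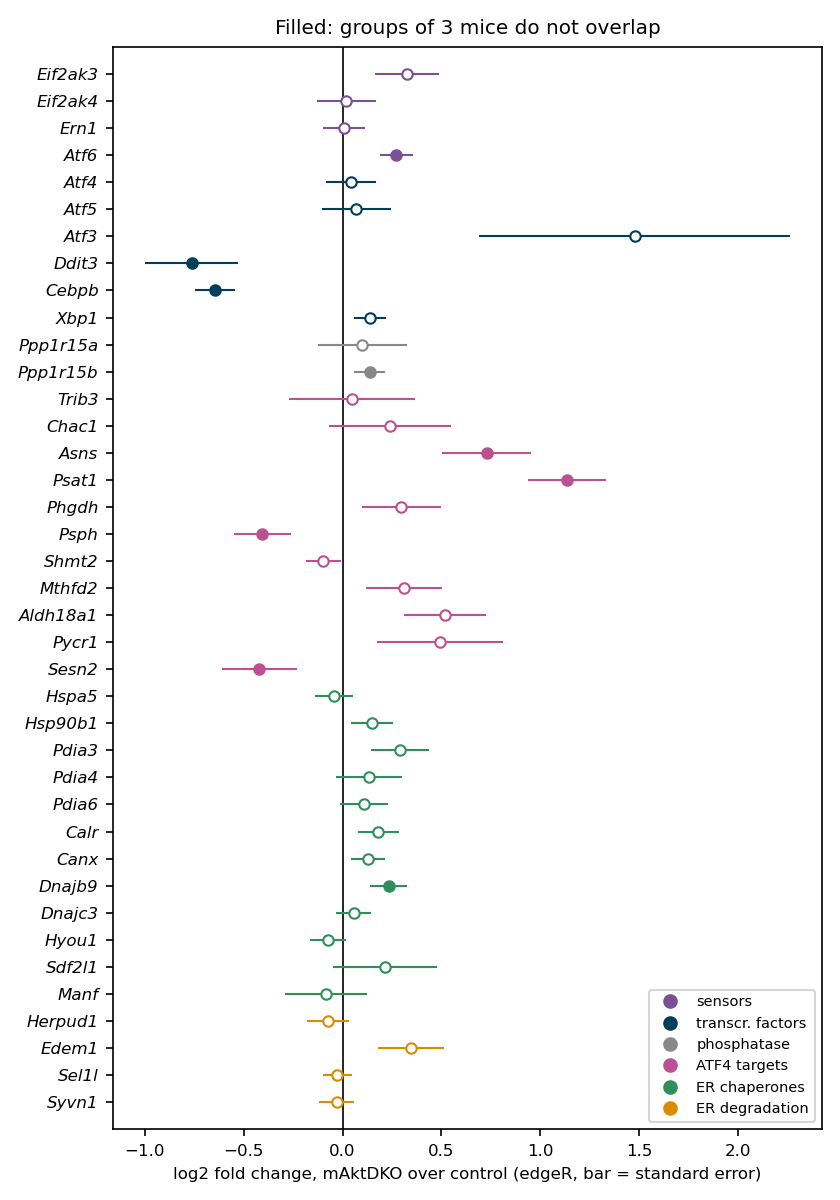
Log2 fold change, mAktDKO over control, of the 39 tested genes with its standard error from the edgeR fit (x axis), in the order of their roles; filled points have groups of 3 mice that do not overlap. The 11 ATF4 target genes spread from -0.42 (Sesn2) to 1.14 (Psat1), and the 12 chaperones stay between -0.08 (Manf) and 0.29 (Pdia3).

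Put side by side, the ATF4 target genes had the higher median fold change, 0.30 against 0.13 for the ER chaperones on the log2 scale. The difference of 0.17 was not tested because it is a score over genes chosen with results known. In the further lists given below, the order was the other way. Their medians were 3e-04 for 25 other ATF4 targets and 0.10 for 29 other ER chaperones. The mean log2 CPM of the 11 ATF4 targets was 2.52, 2.53 and 2.601 in the mAktDKO mice and 2.17, 2.22 and 2.45 in the control mice. That of the 12 chaperones was 5.90, 5.86 and 5.71 against 5.49, 5.76 and 5.88. Thus the ATF4 mean was above all controls in each mAktDKO mouse, by a small step over control mouse 4, and the chaperone means overlapped. Of the 11 targets, Psat1 had the highest fold change. Relative to its control mean, Psat1 stood at 0.94, 1.12 and 1.02 in the mAktDKO mice and at 0.26 in control mouse 4. These values are on a log2 scale set up slightly differently from that of the ATF4 means. The part of Psat1 in the small step was not tested, so the step is not shown to hold for the other targets. The difference of the medians was -0.08 without mAktDKO mouse 3, where the ATF4 median was 0.08 and the chaperone median 0.16, and 0.07 without control mouse 4. Within the ATF4 list the direction was not shared, since Psat1, Asns and Aldh18a1 stood higher and Psph lower at an unadjusted p under 0.05. Genes with CARE in the window (6 tested) ran from -0.07 to 1.48 in log2 fold change around a median of 0.37. The upper end was Atf3, which was at -0.17 without mAktDKO mouse 3. Of the 6, only Asns had separate groups, and only Asns lay under an unadjusted p of 0.05. Genes with ERSE (7 tested) had a median of 0.11 and a range of -0.05 to 0.18, with 0 under that p by edgeR or DESeq2.

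**Figure D5:**
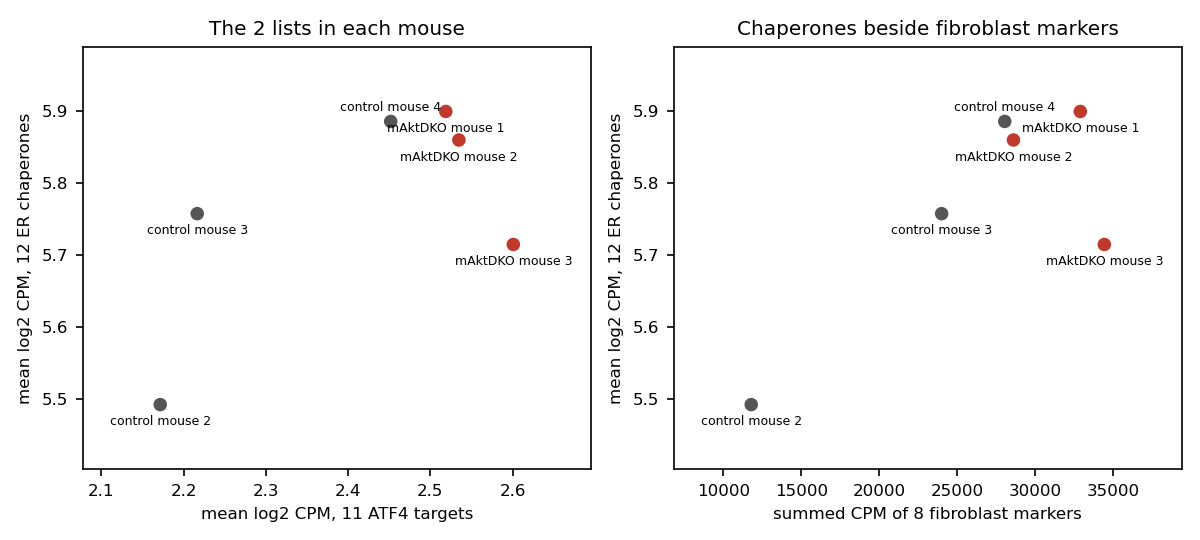
Left, mean log2 CPM of the 11 ATF4 target genes (x axis) and of the 12 ER chaperones (y axis) in each mouse, mAktDKO in red and control in grey. Right, the same chaperone mean against the summed CPM of 8 fibroblast markers, which is mostly collagen mRNA. Here control mouse 2, at 5.49 and 11790 CPM, lies apart from the other 5 mice on both axes.

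The ER-associated degradation genes gave 1 fold change above 0 and 3 below, with a median of -0.03 on the log2 scale and overlapping groups throughout. Edem1, which hands misfolded glycoproteins over for degradation, was read at 28.0, 28.6 and 23.9 CPM against 15.5, 22.8 and 25.3 CPM, with the low control value again that of mouse 2 (0.35 ± 0.17, edgeR adjusted p = 0.2372). Herpud1, with both kinds of motif, had a log2 fold change of -0.07 ± 0.11, and Sel1l and Syvn1, the core of the ubiquitin ligase complex, had -0.03 each.

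Further genes of these pathways, in lists drawn up by role, gave 0 genes under an edgeR adjusted p of 0.05, while DESeq2 placed Ddit4 and Eif2b4 under 0.01 (adjusted p = 0.005274 and 0.005842). For these lists and those below, the background at an unadjusted edgeR p under 0.05 was 11.4% of all tested genes higher and 13.1% lower. Of 25 other ATF4 targets tested, 13 were above and 12 below 0, with 5 higher and 5 lower at an unadjusted p under 0.05. Bcat1, an aminotransferase of branched-chain amino acids, was the first of them by p, at 6.53, 5.69 and 6.72 CPM against 1.05, 3.21 and 3.71 CPM (log2 fold change 1.26 ± 0.35, adjusted p = 0.08529). Ddit4, an inhibitor of mTORC1, and Cars, a cysteinyl-tRNA synthetase, followed in the other direction with -0.68 and -0.35 (adjusted p = 0.09078 and 0.09537). Of 13 subunits and regulators of eIF2, its kinases and its exchange factor eIF2B, 0 were higher and 4 lower at an unadjusted p under 0.05. Eif2b4, a regulatory subunit of eIF2B, was read at 27.5, 24.4 and 27.3 CPM against 39.9, 38.7 and 33.5 CPM (-0.50 ± 0.10, edgeR adjusted p = 0.05063), and the next by p were Eif2b5 (-0.27) and Gcn1l1 (-0.28), the latter a partner of GCN2; the fourth, named after its value was seen, was Eif2b3 (-0.35).

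Of 29 other ER chaperones and folding enzymes, 18 were above 0 and 11 below, 3 and 2 of them with an unadjusted p under 0.05. They were led by Sdf2 (-0.35, adjusted p = 0.06994), Ppib, a proline isomerase of collagen folding (0.36, adjusted p = 0.1528), and Creld1 (-0.25, adjusted p = 0.1613). Of 16 other degradation genes, 2 were higher and 2 lower at that p, and among those with the smallest p were Vcp, the ATPase that pulls proteins out of the membrane (-0.28), and Herpud2 (0.25). Of 14 other regulators of the unfolded protein response, 3 were higher and 2 lower: Bloc1s1, whose mRNA IRE1 cuts, had -0.26, Creb3l1, an ATF6-like factor of collagen-secreting cells, had 0.81, and the death factor Bcl2l11 had 0.35. Creb3l1 stood at 33.0, 42.5 and 47.5 CPM against 13.9, 23.9 and 32.7 CPM, with control mouse 2 lowest. That mouse was also lowest for every fibroblast marker except Gsn, for which it was highest. The part of fibroblasts in the Creb3l1 level was not tested. Among 18 immediate-early genes, 15 were above 0, 4 higher and 0 lower at an unadjusted p under 0.05, led by Myc (0.87, edgeR adjusted p = 0.03961), Egr3 (0.92, adjusted p = 0.05726) and Egr1 (1.88, adjusted p = 0.1084).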

How the data were processed

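The authors removed rRNA from EDL RNA, built strand-specific libraries, sequenced 37 bp read pairs, mapped them to mm10 with STAR and estimated counts with RSEM 1.3.1; STAR is version 2.6.1b in the submitters' processing notes. The deposited table holds these expected counts per gene symbol, not scaled between mice, and between 3.36% and 4.09% of values per mouse carried a fraction. RSEM's strand setting is not given in the sources used here.

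Expected counts were rounded, filtered with filterByExpr (minimum count 10), scaled by TMM and fitted on genotype with edgeR 4.0.16 (R 4.3.3, quasi-likelihood F test), with Benjamini-Hochberg adjustment over 12892 genes; standard errors are the log2 fold change over the square root of F. A gene was called at an adjusted p of 0.01, the value the study used with DESeq2. DESeq2 1.42.0, other scalings and filters, and leaving out each mouse were alternatives. The steps were tested on simulated data. Numbered samples were taken as 1 mouse each, and p-values measure only the spread between them. Since control columns bear the numbers 2 to 4 but labels 1 to 3, a column names a control mouse of the table and no labelled sample.

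The 40 genes and all lists were chosen with earlier results of these data known. Values per mouse are given for genes under an adjusted p of 0.05, genes with an unadjusted p under 0.05 and separate groups, all sensors, transcription factors and phosphatase subunits, and the gene with the largest fold change in each other role; for further lists, the 3 genes with the smallest p are named, except 1 that is not reported here. Values per mouse of Aldh18a1, Phgdh, Chac1, Sesn2, Hspa5, Bcat1, Eif2b4 and Creb3l1 were added after they were seen. Exon lengths are from GENCODE M21 (GRCm38).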

Additional observations from a re-analysis of the deposited data

How the results depend on the processing

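At an adjusted p of 0.01 the count of stress-response genes called was 0 under edgeR with 3 scalings, 2 filters and each mouse left out; it was 1 with DESeq2, and 2 at an adjusted p of 0.05. With library totals in place of TMM, which move the log2 median over all genes from 0.02 to 0.16, genes higher at an unadjusted p under 0.05 went from 5 to 14 and those higher with separate groups from 5 to 12; there Shmt2 (0.0402), Hspa5 (0.0933), Hyou1 (0.0659), Manf (0.0545), Herpud1 (0.0662), Sel1l (0.11) and Syvn1 (0.11) turned to above 0. Ern1 was at -0.0018 with DESeq2. Over the 6 fits without 1 mouse, genes higher at an unadjusted p under 0.05 ranged from 2 (without mAktDKO mouse 3; 3 without control mouse 3) to 10 (without control mouse 4), genes higher with separate groups from 5 to 13 (13 without control mouse 4, 12 without mAktDKO mouse 3, 8 without control mouse 2), the ATF4 median from 0.0753 to 0.34, the chaperone median from 0.03 to 0.22 and their difference from -0.084 to 0.23. Genes that changed sign in these fits ranged as follows in log2 fold change: Eif2ak4 -0.0697 to 0.13, Ern1 -0.075 to 0.0474, Atf4 -0.0473 to 0.19, Atf5 -0.0714 to 0.25, Atf3 -0.17 to 2.10, Ppp1r15a -0.0932 to 0.41, Trib3 -0.17 to 0.22, Chac1 -0.0447 to 0.55, Hspa5 -0.11 to 0.0148, Pdia4 -0.0033 to 0.32, Dnajc3 -0.0041 to 0.10, Hyou1 -0.12 to 0.0094, Manf -0.29 to 0.0829, Herpud1 -0.15 to 0.0354 and Sel1l -0.0486 to 0.0025. The cause was not tested. No gene that was called or named for separate groups was among them; Psat1 ranged from 0.96 to 1.29 and Cebpb from -0.70 to -0.56. No paired analysis was possible because numbers in the table and in the labels differ for the control group. The reads behind low genes were few, 30 to 110 a mouse for Psat1 and 10 to 19 for Trib3.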
